A study of Homo sapiens with 5 samples.

Results

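The genes described here are 6 genes of the DNA damage checkpoint: the kinases ATM and CHEK2, the kinase partner ATRIP, the clamp loader subunit RAD17 and the cell cycle phosphatases CDC25A and CDC25C. They were chosen by name, and every probe that the platform annotation assigns to 1 of them was taken. All 6 were represented, by 12 probes, among 8127 genes and 11184 probes. CDC25C had 3 probes, RAD17 had 1 and the other genes had 2 each.

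All samples were HEK293T, a line of human embryonic kidney origin with the SV40 large T antigen, a protein that binds p53. In the miR-182 pull-down (2 arrays), cells received 200 pmol of a biotin-labelled miR-182-5p duplex, were harvested after 24 h, and the microRNA was isolated on streptavidin beads together with the transcripts bound to it. The comparison group (3 arrays) was mock-transfected HEK293T cells given the same harvest time. Mock samples are labelled as having no pull-down, although the bead protocol is attached to them too, so effects of the beads, of the transfected duplex on RNA levels and of binding to the bait cannot be told apart. The question is which messages are recovered with miR-182. The labels name replicates without saying whether they were separate cultures, and p-values then reflect no more than how far these arrays vary, possibly for technical reasons.

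Cells answer DNA damage by stopping the cell cycle. ATM is activated at double-strand breaks and phosphorylates CHEK2, while ATRIP brings the kinase ATR to single-stranded DNA, where RAD17 and its partner subunits load a ring-shaped clamp that helps to activate ATR and then CHEK1. The checkpoint kinases phosphorylate CDC25 phosphatases, which are thereby degraded or held back and no longer switch on the cyclin-dependent kinases that drive the cycle. A microRNA guides Argonaute proteins to messages that pair with its seed, the bases near its 5′ end.

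The microRNA is shown because it was the bait of the pull-down that every comparison uses. The sequences below are from RefSeq (GRCh38.p14, minus strand), written 5′ to 3′. The mature microRNA lies at chr7:129770447-129770470, and its capitals mark the seed, bases 2 to 8. The hairpin lies at chr7:129770383-129770492, and its capitals mark the mature 5p arm.
hsa-miR-182-5p: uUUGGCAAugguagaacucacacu
MIR182 hairpin: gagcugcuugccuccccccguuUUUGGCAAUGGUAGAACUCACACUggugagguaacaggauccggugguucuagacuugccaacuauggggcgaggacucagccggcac
A full seed match in a message would read UUGCCAA. Transcript and probe sequences were not used here, so whether the 6 messages hold this match was not analysed.

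All values below are the authors' deposited log2 values, and all differences are pull-down minus mock. The lowest value of an array lay between 8.0 and 8.04, and between 14.9% and 26.7% of probes per array were within 0.1 of it. A probe that close to the lower limit cannot show a further decrease, and its increase is compressed. Over all probes, which are not independent replicates, Pearson's r was 0.978 for the pull-down arrays, 0.980 to 0.987 among mock arrays and 0.885 to 0.904 for arrays of different groups. Of 8 genes listed for HEK293T cells 7 were measured. VIM was at 13.04 to 13.76 and LIN28B at 10.79 to 11.87. INA was at 8.58 to 9.16 and NEFM at 8.83 to 8.97, near the array medians of 8.72 to 8.81. KRT8, at 8.23 to 8.66, and NEFL, at 8.06 to 8.32, were below those medians. KRT18 was at 8.0 to 8.09, at the lower limit. None of 10 markers listed for other cells had a probe in the table used here.

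Of the 6 genes, CHEK2 and RAD17 had higher signal after the pull-down, by 0.93 at the RAD17 probe and 0.90 at the CHEK2 probe that passed, and the probes of ATM, ATRIP, CDC25A and CDC25C did not pass the test. Among the 12 probes, 2 were higher and 0 lower (limma, Benjamini-Hochberg adjusted p under 0.05 over all probes). These were RAD17 and CHEK2 probe ILMN_2395236. This is 16.7% of the 12 probes, against 19.2% of all probes called higher and 14.2% called lower, so the share of higher calls is near the background. By unadjusted p under 0.05, CHEK2 probe ILMN_2395240 passed as well, and no probe of the 6 genes was lower. The median difference of the 12 probes was 0.02, beside 0.01 over all probes. The groups of arrays did not overlap for 5 of the 12 probes in the higher direction (41.7%, against 34.1% of all probes) and for 1 in the lower direction (8.33%, against 30.7%). With 2 arrays against 3, an exact permutation test of a single probe cannot give a p below 0.1.

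**Figure D1:**
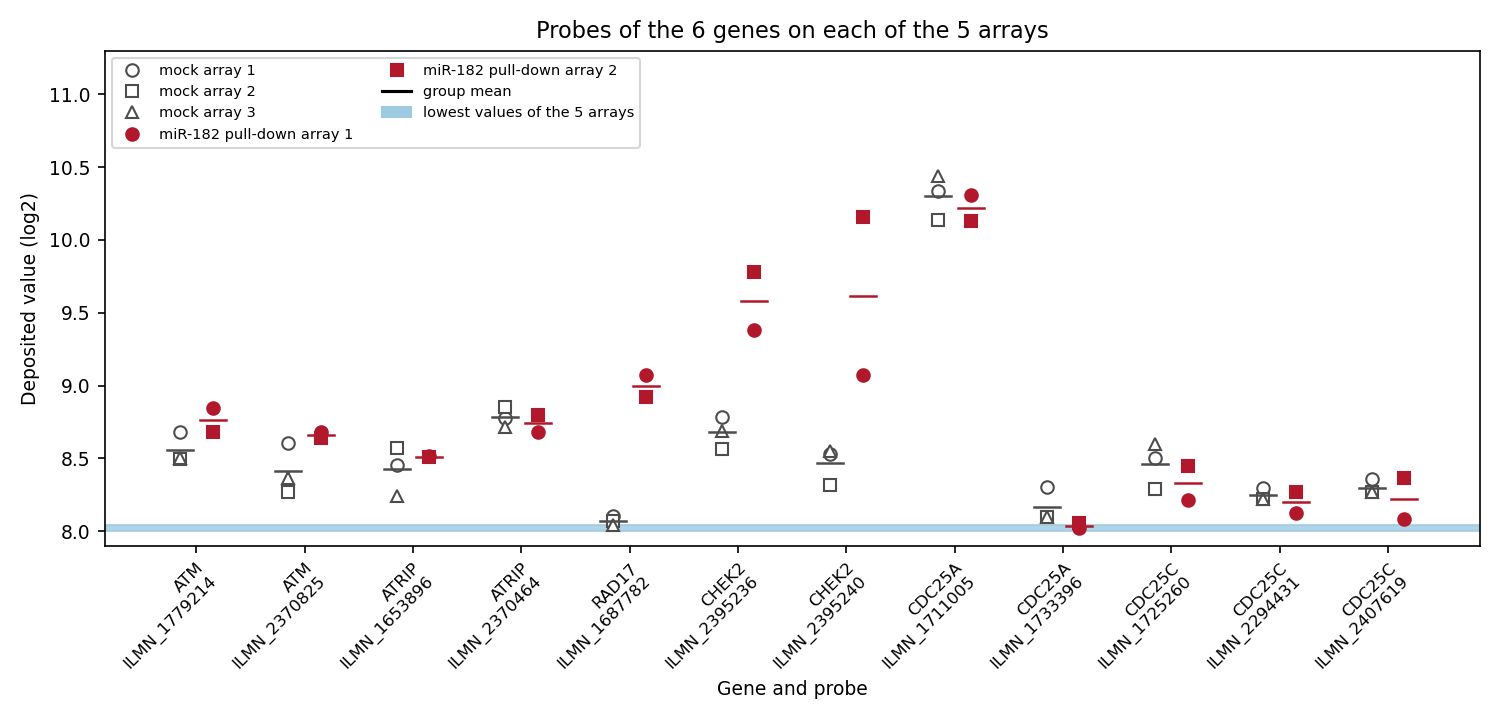
Deposited log2 values (vertical axis) of the 12 probes (horizontal axis) on the 3 mock arrays (open symbols) and the 2 miR-182 pull-down arrays (red), with group means as bars and the range of the arrays' lowest values as a blue band. The pull-down arrays lie above all mock arrays for RAD17, both CHEK2 probes and, by little, both ATM probes, and RAD17 lies near the blue band in the mock.

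CHEK2 is the effector kinase that ATM activates. Its probe ILMN_2395236 was at 9.38 and 9.78 on pull-down arrays 1 and 2, and at 8.79, 8.57 and 8.69 on mock arrays 1, 2 and 3. Both pull-down arrays were above every mock array. The means were 9.58 ± 0.28 (SD, n = 2) and 8.68 ± 0.11 (SD, n = 3), a difference of 0.90 (SE 0.15, 95% interval 0.52 to 1.29) or 1.87-fold (limma, Benjamini-Hochberg adjusted p = 0.0143). Of all probes, 6.50% had a larger difference. The call ended without mock array 2, at a difference of 0.85 and an adjusted p of 0.0525, and held with any other array left out.

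The other CHEK2 probe, ILMN_2395240, was at 9.07 and 10.16 in the pull-down and at 8.53, 8.32 and 8.55 in the mock. Again no mock array reached the pull-down arrays, but those were 1.08 apart, a gap that only 0.429% of all probes exceeded. On ILMN_2395236 the same arrays were 0.40 apart in the same direction, with array 2 the higher. The difference at ILMN_2395240 was 1.15 (SE 0.34, 95% interval 0.24 to 2.06), or 2.22-fold, and it did not pass the threshold (limma, Benjamini-Hochberg adjusted p = 0.0646). Array 2 of the pull-down set against the mock alone gave 1.69 (adjusted p = 0.0202, limma), and array 1 alone gave 0.61 (adjusted p = 0.05755), each fit assuming that the lone array varies like the mock. CHEK2 has 6 pseudogene records in the gene table, and its probes could share signal with transcripts of near-identical copies, so the values are uncertain to that extent.

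RAD17 forms the clamp loader that places the RAD9A-HUS1-RAD1 clamp on damaged DNA. Its only probe was at 9.07 and 8.92 on the pull-down arrays and at 8.10, 8.07 and 8.04 on the mock arrays. The pull-down arrays were close together and far above the mock arrays, all 3 of which were within 0.1 of their lowest value. The means of 8.995 ± 0.11 (SD, n = 2) and 8.07 ± 0.03 (SD, n = 3) gave a difference of 0.93 (SE 0.07, 95% interval 0.74 to 1.11) or 1.90-fold (limma, Benjamini-Hochberg adjusted p = 0.00385), and 6.17% of all probes had a larger one. Because the mock level was at the lower limit, the size of this difference is compressed. It lay between 0.85 and 1.00 with 1 array left out, with adjusted p-values from 0.0140 to 0.0219 (limma). RAD17 has 2 pseudogene records in the gene table, and its call rests on 1 probe.

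ATM is the kinase at the head of the double-strand break response. Its probe ILMN_1779214 was at 8.85 and 8.68 in the pull-down, and at 8.68, 8.50 and 8.50 in the mock. The lower pull-down array stood only just above mock array 1. The difference was 0.21 (SE 0.09, 95% interval -0.04 to 0.45, limma, Benjamini-Hochberg adjusted p = 0.162). The other ATM probe, ILMN_2370825, was at 8.68 and 8.64 in the pull-down and at 8.61, 8.27 and 8.37 in the mock. Here too the pull-down arrays were above each mock array, again with mock array 1 close by. The difference was 0.25 (SE 0.12, 95% interval -0.07 to 0.56, adjusted p = 0.180). Both ATM differences had the same sign, and neither passed the test.

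ATRIP is the obligate partner of ATR. Its probe ILMN_2370464 was at 8.68 and 8.80 in the pull-down and at 8.77, 8.86 and 8.72 in the mock, so the groups overlapped. The difference was -0.04 (SE 0.07, 95% interval -0.24 to 0.15, limma, Benjamini-Hochberg adjusted p = 0.705). ILMN_1653896 was at 8.52 and 8.51 in the pull-down and at 8.46, 8.57 and 8.24 in the mock, with a difference of 0.09 (SE 0.11, 95% interval -0.21 to 0.38, adjusted p = 0.601). The pull-down values fell within the mock range on this probe. The gene table holds 1 read-through record that joins ATRIP to its neighbour TREX1, an exonuclease gene, and ATRIP probes could also report that transcript.

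CDC25A activates cyclin-dependent kinases at entry into S phase and later, and is degraded after damage. Its probe ILMN_1711005 was well above the lower limit, at 10.31 and 10.13 in the pull-down and 10.34, 10.14 and 10.44 in the mock. The groups overlapped, and the difference was -0.08 (SE 0.12, 95% interval -0.40 to 0.23, adjusted p = 0.628 by limma). The other CDC25A probe, ILMN_1733396, was at 8.02 and 8.05 in the pull-down and at 8.30, 8.10 and 8.10 in the mock. Both pull-down arrays and 2 mock arrays were within 0.1 of their lowest value, so any decrease at this probe is compressed. Its difference was -0.13 (SE 0.09, adjusted p = 0.321), with no overlap between the groups.

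CDC25C acts at entry into mitosis and is held in the cytoplasm once checkpoint kinases phosphorylate it. ILMN_1725260 was at 8.21 and 8.45 in the pull-down and at 8.50, 8.29 and 8.60 in the mock, and its difference was -0.13 (SE 0.13, 95% interval -0.48 to 0.21, adjusted p = 0.491 by limma). The other 2 probes gave -0.05 (SE 0.07, ILMN_2294431) and -0.07 (SE 0.10, ILMN_2407619), with adjusted p-values of 0.635 and 0.628 (limma). All 3 CDC25C probes overlapped between groups. Pull-down array 1 was the lowest of the 5 arrays on each of them, and on ILMN_2407619 it was within 0.1 of the lower limit.

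**Figure D2:**
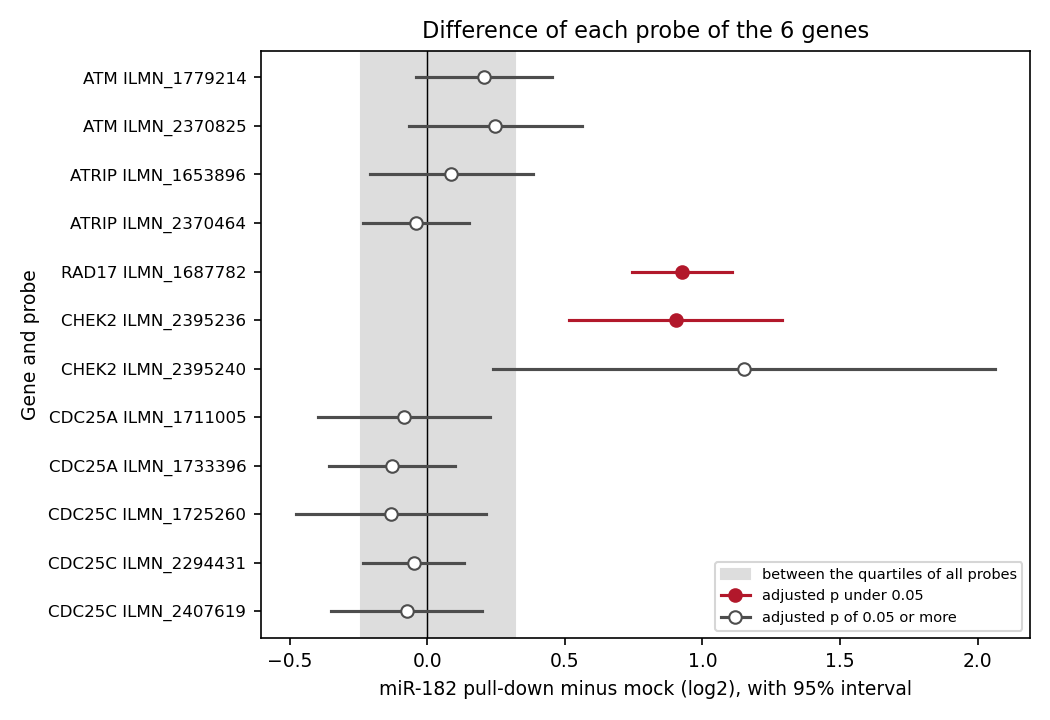
Difference between the pull-down and the mock mean (horizontal axis, log2) of each of the 12 probes with its 95% interval from limma; filled red symbols passed the adjusted threshold, and the grey band runs from the lower to the upper quartile of all 11184 probes (-0.24 to 0.32). RAD17 at 0.93 and CHEK2 at 0.90 and 1.15 lie outside the band, and the other 9 probes lie inside it.

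Different probes of a gene were compared for the 5 genes that had several. In 6 probe pairs, the difference of 1 probe was set against that of the other in a fit over all 1913 probe pairs of the table, and none of the 6 passed (limma, Benjamini-Hochberg adjusted p from 0.458 to 0.861), nor did any reach an unadjusted p under 0.05. Over all pairs tested, 12.0% passed. The intervals are wide, so these tests do not show that the probes agree. For CHEK2, ILMN_2395236 minus ILMN_2395240 was -0.25 (95% interval -0.78 to 0.28). The 2 ATRIP probes had differences of opposite sign, -0.04 and 0.09. For ATM the 2 probes differed by -0.04 (95% interval -0.32 to 0.23), and for CDC25A by 0.04 (95% interval -0.32 to 0.40). Whether the differences of CHEK2 and RAD17 exceed those of the other 4 genes was not tested.

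**Figure D3:**
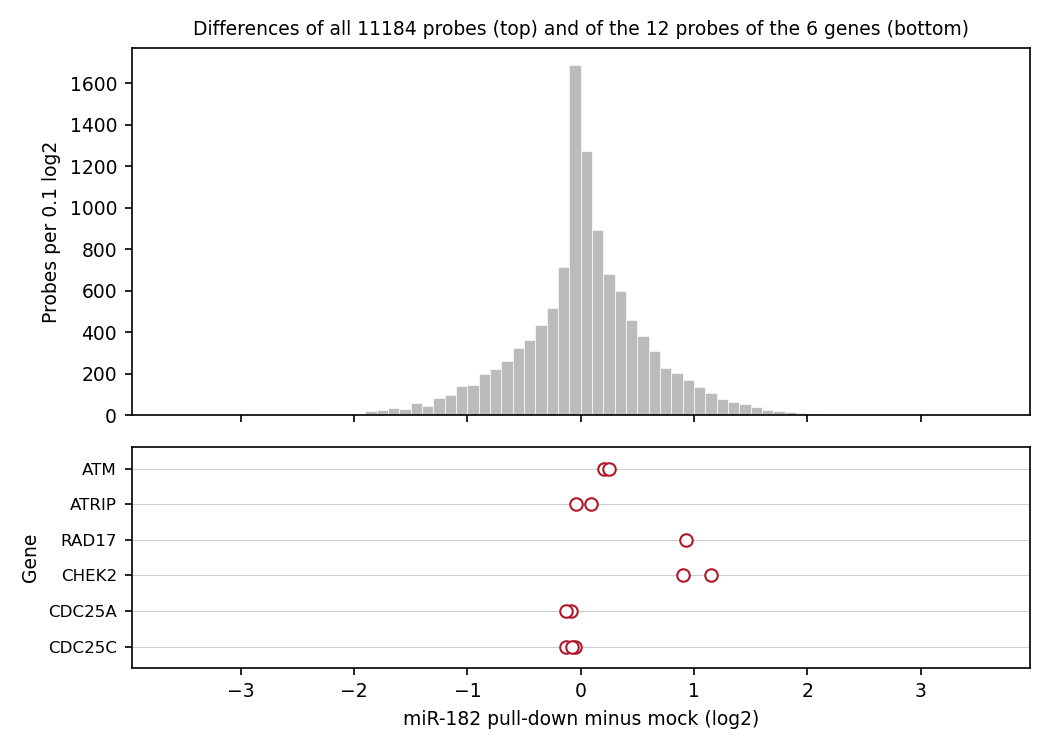
Histogram of the pull-down minus mock differences (log2) of all 11184 probes in bins of 0.1 (top) and the 12 probes of the 6 genes on the same axis (bottom). The probes of CHEK2 and RAD17 lie in the upper tail, and those of the other 4 genes lie around the centre.

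The genes whose 5-array pattern was nearest to each of the 6 were found by the distance between values after subtraction of each probe's mock mean. For CHEK2 (ILMN_2395236) these were RARS2, PTPN13 and AUH, at distances of 0.07, 0.08 and 0.10 on the log2 scale, with differences of 0.86 to 0.92. For RAD17 they were EFNB3, RBM15B and FAM161A, at 0.03, 0.05 and 0.08. For ATM they were DNAJB14, ZBTB14 and FANCB, at 0.04 to 0.05. ATRIP was nearest to ANKRD33, CRY2 and ZBTB17, CDC25A to MTMR6, FSTL1 and PLCL2, and CDC25C to CHERP, GYG1 and HSP90AA1. The measure is taken over 5 arrays that fall into 2 groups, and many probes have such patterns.

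Around these 6 genes, 88 other genes of the checkpoint were listed by role, with earlier results of these data known, and 64 were measured. Each stood by its probe with the highest mean. Of the 64, 19 were higher and 13 lower after the pull-down (29.7% and 20.3%), where 20.0% of all 8127 genes were higher and 14.7% lower. The median difference was 0.09, against 0.02 over all genes. The shares and the median over all genes are the background for each list below. Lower calls fell from 13 to 6 on removal of mock array 1 or 2 and to 9 on removal of mock array 3. Over all probes, the same removals took lower calls from 1584 to 1010, 1048 and 1441. With 1 mock array left out, higher calls numbered 13 to 17, and over all probes 1225 to 1712, down from 2142. Lower calls also fell without either pull-down array, among these genes and over all probes alike. The counts of single lists after a removal, given below, are to be read beside this general fall. Under the rule for naming genes, 27 called genes are named below, and 13 of them kept their call with each of the 5 arrays left out.

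Upstream, in the ATM branch, 3 of 8 measured genes rose and 2 fell, the median being 0.07. NBN, the subunit of the MRE11-RAD50-NBN complex that recruits ATM, was at 10.94 and 10.61 in the pull-down and at 9.60, 9.09 and 9.40 in the mock. No mock array came near the pull-down arrays, and NBN was 2.66-fold higher (difference 1.41, SE 0.19, limma, Benjamini-Hochberg adjusted p = 0.00967). ATMIN, a protein that interacts with ATM, was higher by 0.95 (SE 0.06), with 0.46 at its other probe and all 3 mock arrays at the lower limit. TP53BP1, a chromatin reader at breaks, was higher by 0.68 (SE 0.17), and lost its call with any array left out. MDC1, the scaffold that binds phosphorylated histone at breaks, had a difference of -0.98 (SE 0.22), and the ubiquitin ligase RNF8 of -0.51 (SE 0.10). Both lower calls ended without pull-down array 1 or any of the mock arrays. NBN and ATMIN kept their calls with each array left out. Lower genes of this branch numbered 0 on removal of pull-down array 1 or of mock array 1 or 2.

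In the ATR branch, which RAD17 and ATRIP serve, 2 of 10 measured genes rose and 1 fell, the median being -0.16. The subunits that join RAD17 in its clamp loader did not share its call as a set. RFC5 was at 11.77 and 12.11 in the pull-down and 11.19, 11.201 and 10.92 in the mock, higher by 0.83 (SE 0.15, limma, Benjamini-Hochberg adjusted p = 0.0184). RFC3 was higher by 0.46 (SE 0.12, adjusted p = 0.0480, limma). Its other probes gave 0.67, which did not pass (adjusted p = 0.112, limma), and 0.56, which did (adjusted p = 0.00579, limma). RFC2 and RFC4 had differences of -0.50 and -0.28 that did not pass, and their other probes gave 0.13 and -0.27, which did not pass either. The other RFC2 probe had a mock mean of 8.04, at the lower limit, and cannot show a decrease. TIMELESS, a replication fork protection protein, had a difference of -0.60 (SE 0.13). RAD9A, of the loaded clamp, had 0.30 (SE 0.14), and TOPBP1, the activator of ATR, had -0.56 (SE 0.22). The kinase CHEK1, the counterpart of CHEK2 in this branch, had -0.32 (SE 0.15, limma, Benjamini-Hochberg adjusted p = 0.165), with 8.93 and 9.18 in the pull-down against 9.55, 9.17 and 9.42 in the mock. These 3 did not pass, but RAD9A did without mock array 3 (0.42, adjusted p = 0.0346, limma), and TOPBP1 did among probes with a mean of at least 9 (adjusted p = 0.0328). ATR, RAD1 and HUS1 had no probe among the values used here. Without pull-down array 2 or mock array 2, no gene of this branch was higher. RFC5 lost its call without either of those or mock array 1, and RFC3 without any array other than mock array 1. The TIMELESS call held only without mock array 3.

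Among clamp loaders and the sliding clamp, 8 genes were measured: RFC5 and RFC3 were higher, 3 were lower, and the median was -0.39. DSCC1, a subunit of the cohesion clamp loader, was at 8.39 and 8.20 in the pull-down against 9.75, 9.94 and 10.01 in the mock. Its difference, -1.61 (SE 0.11, adjusted p = 0.00353 by limma), held with each array left out. Its partner CHTF18 had -0.84 (SE 0.20) and PCNA, the sliding clamp itself, -0.81 (SE 0.13), with -0.11 at the other PCNA probe. Both lost their calls without either pull-down array, CHTF18 also without mock array 1 and PCNA without mock array 2. Without either pull-down array only 1 gene of the list was lower.

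Of 7 measured PI3K-related kinases and assembly factors, the family of ATM, 1 was higher and 1 lower, with a median of 0.12. RUVBL1, an ATPase of the assembly machinery, was higher by 1.43 (SE 0.21, adjusted p = 0.0110 by limma). Its other probe gave 1.42, and RUVBL1 kept its call with each array left out. MTOR, the growth-regulating kinase, had a difference of -0.41 (SE 0.10, adjusted p = 0.0444), and lost its call with any array left out.

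Among 12 measured genes listed with the CDC25 phosphatases, cyclin-dependent kinases and their opposing kinases, 1 was higher and 3 lower, with a median of -0.15. The third phosphatase, CDC25B, had a difference of 0.22 (SE 0.18), and the kinases that CDC25 proteins activate, CDK1 and CDK2, had 0.26 (SE 0.21) and 0.30 (SE 0.10), with -0.04 and -0.08 at their other probes. None of these passed with all arrays and probes. CDC25B passed without mock array 3 (0.39, adjusted p = 0.0247, limma), and CDK1 lay between 0.01 and 0.50 with 1 array left out. WEE1, the kinase that opposes CDC25, had -0.67 (SE 0.18, limma, Benjamini-Hochberg adjusted p = 0.0523). It passed without mock array 2 (-0.82, adjusted p = 0.0289) and in 6 other alternatives, among them all 3 other scalings (-0.71 to -0.74, adjusted p from 0.0223 to 0.0360, limma). CDK7, part of the kinase that activates other cyclin-dependent kinases, was higher by 0.86 (SE 0.13). The cyclins CCNA2, CCNB2 and CCNB1 were lower, with -0.77 (SE 0.08), -0.56 (SE 0.15) and -0.43 (SE 0.09). CCNA2 was at 10.04 and 9.88 in the pull-down and 10.80, 10.67 and 10.74 in the mock, and its call and that of CDK7 held with each array left out. CCNB1 and CCNB2 lost their calls without pull-down array 1 or any mock array. Lower genes numbered 1 after removal of pull-down array 1, of mock array 1 or of mock array 3.

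The regulators of CDC25, a list that holds CHEK2 itself (not counted), had 9 of 18 measured genes higher and 2 lower, with a median of 0.33. AURKA, a mitotic kinase, was at 12.23 and 12.24 in the pull-down and at 10.75, 10.86 and 10.96 in the mock. The arrays of each group were close together, and the difference was 1.38 (SE 0.08, adjusted p = 0.00325 by limma), with 1.44 at the other probe. YWHAZ, of the adaptor family that binds phosphorylated CDC25C, was higher by 1.32 (SE 0.20), the kinase PIM1 by 0.77 (SE 0.10), and FBXW11, a substrate receptor of the ubiquitin ligase that degrades CDC25A, by 0.59 (SE 0.11). BORA, an activator of the AURKA and PLK1 kinases, had -0.74 (SE 0.11), and the adaptor YWHAQ -0.56 (SE 0.08). All kept their calls with each array left out except FBXW11, which needed pull-down array 1 and mock arrays 1 and 2 to be called. Higher genes numbered 6 after removal of pull-down array 1 or of mock array 2.

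Downstream, in the p53 branch, 3 of 6 measured genes rose and 1 fell, the median being 0.39. GADD45A and CDKN1A, targets of p53, were higher by 1.29 (SE 0.11) and 1.23 (SE 0.12), and both kept their calls with each array left out. The apoptosis gene BAX was higher by 0.77 (SE 0.14), with 0.75 at its other probe, and lost its call without pull-down array 2 or mock array 1. ZMAT3, a p53 target that encodes a zinc finger protein, had probes that disagreed: the one with the highest mean was at 11.61 and 11.57 in the pull-down and 12.53, 13.09 and 13.76 in the mock (difference -1.53, SE 0.38, limma, Benjamini-Hochberg adjusted p = 0.0413), while the others gave 0.99 and 0.96 with adjusted p-values of 0.00500 and 0.00418. Its lower call ended without either pull-down array or mock array 2. A single direction for ZMAT3 is therefore not given by these probes.

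**Figure D4:**
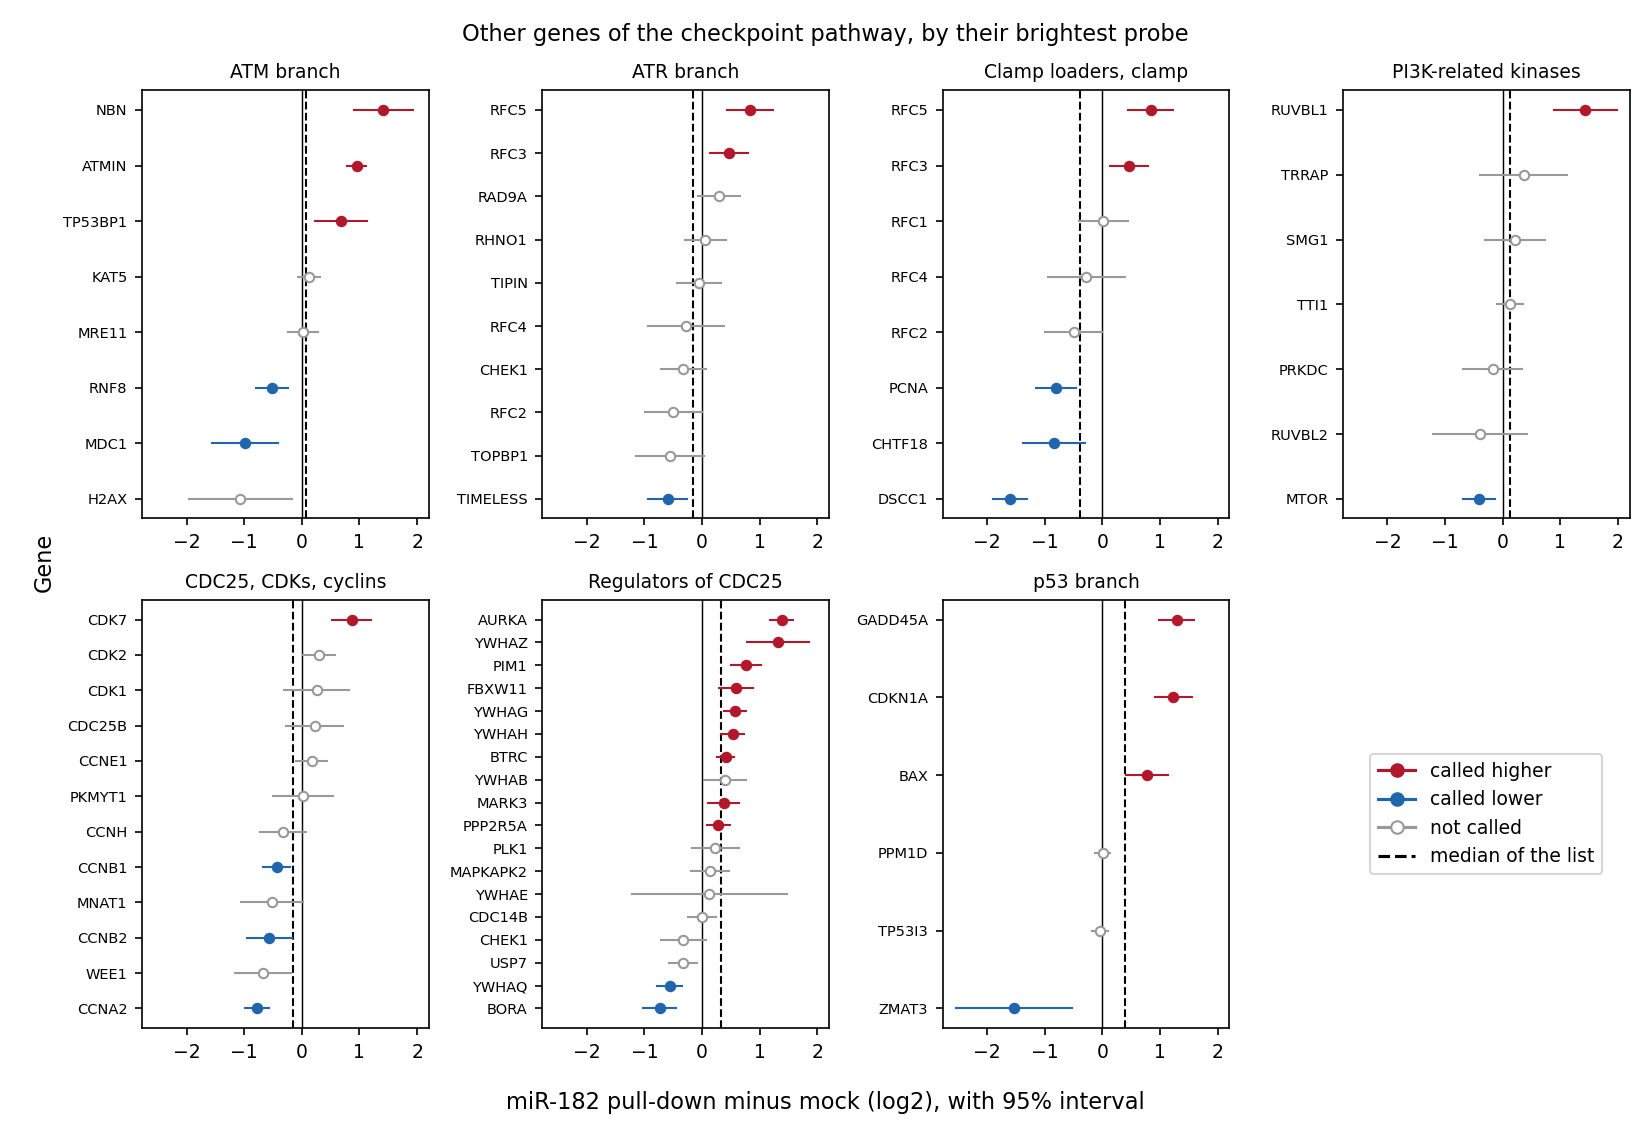
Pull-down minus mock differences (horizontal axes, log2) with 95% intervals from limma for the 64 other checkpoint genes, 1 panel per list (RFC2, RFC3, RFC4, RFC5 and CHEK1 appear in 2 panels). Red marks genes called higher, blue genes called lower, and dashed lines the list medians, which run from -0.39 for clamp loaders to 0.39 for the p53 branch.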

How the data were processed

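RNA from 5 samples was measured on Illumina expression BeadArrays. The authors deposited log2 values for 11184 probes; lumi 2.2.1 appears in the submitters' processing notes without a stated role. How the values were background-corrected, transformed, normalized and filtered is not given in the sources used here. Base 2 was taken from the range of the values, since no source states it. A second table of unnormalized signals was left out: the names of its 10 value columns match no sample's labels.

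Probes were named through a platform annotation and a RefSeq gene table (GRCh38.p14): 1 symbol was given for 10040 probes, several for 1 and none for 1143, and 10039 were matched to a gene record. Without further normalization or filter, limma 3.58.1 (R 4.3.3) was fitted to every probe with lmFit and eBayes, as a 2-sided test with the group alone in the model and 3 residual degrees of freedom, with Benjamini-Hochberg adjustment over all probes and a threshold of 0.05. Pairs of probes of 1 gene were tested on their per-array difference in the same way. Folds are 2 to the power of the difference. The fit was tested on simulated data under both of 2 variance models. With variances drawn from the fitted prior, the share of unchanged probes among the calls stayed below the nominal rate. With each probe's own measured variance, it was above that rate, so the adjusted p-values may call too many probes. Of 67 simulated probes changed by 0.5, 14 were recovered with variances from the prior and 18 with their own. The same models recovered 48 and 32 of 67 probes changed by 1, and 60 and 59 of 66 changed by 2. A probe that did not pass may therefore still differ. Pathway genes are named if they were among the 4 largest calls of a list in either direction, or were among 10 genes fixed by name, of which 3 had no probe here. The genes and lists were chosen with earlier results of these data known. Alternatives were the replicate number as a block, leaving out each array, 3 other scalings, 2 filters on dim probes, another variance prior and other choices of a gene's probe. The number of arrays limits the precision.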

Additional observations from a re-analysis of the deposited data

How the results depend on the processing

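With 1 array left out, RAD17 lay between 0.85 and 1.00, CHEK2 ILMN_2395236 between 0.71 and 1.10, and CHEK2 ILMN_2395240 between 0.61 and 1.69. RAD17 kept its call in each alternative that tested it. CHEK2 ILMN_2395240 passed with median centring (1.11, limma, Benjamini-Hochberg adjusted p = 0.0437), with only probes above the lower limit in 1 group (1.15, adjusted p = 0.0321) and with the trend and robust prior (1.15, adjusted p = 0.00397). The replicate numbers shared by the groups are 2. The gap between replicates 1 and 2 in the pull-down correlated with that in the mock by r = 0.06 across probes. This sets a single gap of each group against the other, and the labels do not say whether arrays of the same number belong together. It therefore cannot decide whether the arrays are paired. With the replicate number as a block, CHEK2 ILMN_2395236 had 0.91 with an adjusted p of 0.0711 (limma). In that fit 1 probe of the 6 genes and 12 listed genes were higher, 6 listed genes were lower, and 1414 probes in all were higher. Mock array 3 shares its number with no pull-down array. Each difference with the block therefore equals that without mock array 3 and is not a separate estimate. The block also leaves fewer degrees of freedom. It ended the calls of 13 of the 27 named pathway genes, CDK7, BORA and YWHAQ (adjusted p = 0.0619, 0.0606 and 0.0663) among them, whereas YWHAE (0.55, adjusted p = 0.0477) and H2AX (-0.75, adjusted p = 0.0326) passed. With only probes of a mean of at least 9, which keeps 2 of the 12 probes, 1 of these, 12 listed genes and 1202 probes were higher. Listed genes with a lower mean, ATMIN and PIM1 among them, were not tested in this setting. The 12 is therefore not a count of calls kept among all listed genes. In this setting 1431 probes were lower, so 45.7% of its calls were higher, against 57.5% in the main setting. It tested 4885 probes, and its prior degrees of freedom were 21.5, against 1.49 in the main setting. What changed the calls was not tested. In the main setting 2142 probes were higher and 1584 lower, and with 1 array left out 1225 to 1712 and 842 to 1441. The same removals left 1 to 3 probes of the 6 genes and 13 to 17 listed genes higher, and 5 to 9 listed genes lower. Differences near 0 changed sign, none past the threshold. ATRIP ILMN_1653896 had -0.0027 with the block, -0.0091 with quantile normalization, and -0.0027 to 0.16 with 1 array left out. CDC25A ILMN_1711005 had 0.0144 with cyclic loess and -0.17 to 0.0023 with 1 array left out. The sign also turned for ATRIP ILMN_2370464 (-0.10 to 0.0180) and CDC25C ILMN_2294431 (-0.12 to 0.0210) and ILMN_2407619 (-0.22 to 0.0668). Probe pairs ranged from -0.10 to 0.0196 for ATM, -0.0606 to 0.15 for CDC25A, -0.13 to 0.0245 for CDC25C with ILMN_2407619 (0.0245 with the block) and -0.59 to 0.0969 for CHEK2. Among counts of single lists, 130 of 182 stayed within 1.5 times; among values of named pathway genes, 405 of 499 kept direction and side of the threshold, 75 lost a call, 17 gained one, and YWHAE turned to -0.19 without pull-down array 1 and to -0.20 without mock array 2, in a range up to 0.5501. The cause of these changes was not tested where none is given.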

Other observations

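The adaptor family that holds phosphorylated CDC25 proteins in the cytoplasm was chosen for a closer description after its values were seen. Of its 6 measured genes, 3 were higher, 1 lower and 2 did not pass, where 20.0% of all genes were higher and 14.7% lower. These genes were already counted among the regulators of CDC25, so this count is not a further result. Besides YWHAZ and YWHAQ, YWHAG was at 11.16 and 11.17 in the pull-down and 10.56, 10.70 and 10.53 in the mock, higher by 0.57 (SE 0.07, limma, Benjamini-Hochberg adjusted p = 0.00840), although its other probe gave -0.16 (SE 0.21). YWHAH was higher by 0.53 (SE 0.07, adjusted p = 0.0101). Both calls held with each array left out. YWHAB had 0.39 (SE 0.14, adjusted p = 0.0937), which passed without mock array 1, and YWHAE 0.13 (SE 0.51), with mock arrays between 10.70 and 12.19. The value for YWHAE ran from -0.20 to 0.55 with 1 array left out.

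H2AX, the histone whose phosphorylated form marks breaks, was also singled out after its values were seen. It was at 8.29 and 8.33 in the pull-down and at 9.003, 9.13 and 9.999 in the mock. The pull-down arrays were close together while mock array 3 stood apart, and the difference of -1.07 (SE 0.33) did not pass (limma, Benjamini-Hochberg adjusted p = 0.0728). It passed without mock array 3 (-0.75, adjusted p = 0.0155, limma), with median centring (-1.11, adjusted p = 0.0418), with only probes above the lower limit in 1 group (adjusted p = 0.0376) and with the trend and robust prior (adjusted p = 0.00562).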
